A study of Mus musculus with 4 samples.

Results

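Ribosome biogenesis genes encode the nucleolar factors that transcribe ribosomal RNA, cut and modify it, and assemble it into the small and large ribosomal subunits. The set described here is 35 mouse gene symbols chosen by name for this function, of 23283 symbols with a value in all libraries, by a rule that uses no measured value, although the set was put together with earlier results of these data known. They were followed in Th2 cells, the CD4 helper T cells that make IL-4, IL-5 and IL-13, measured by RNA sequencing. The cells were grown from splenic CD4 T cells of C57BL/6 mice that were wild type (WT) or lacked Menin (Menin KO). Menin belongs to the Trithorax group, whose complexes regulate chromatin, and the study compares Th2 cells with and without it. The 5-day groups of both genotypes received IL-2 (15 ng/ml) together with IL-4 (10 ng/ml) for 5 days. In the groups named as 3 weeks, again of both genotypes, such a culture was followed by 2 days in which no cytokine was added. The cells were then restimulated for 5 days through the T cell receptor, on plate-bound antibody, while IL-2 was supplied and IL-4 was blocked with an antibody. The described steps last less than 3 weeks in total. The sources used here do not say how Menin was deleted or whether cells of several mice were pooled. There were 4 groups of 1 library, called WT 5-day, WT 3-week, KO 5-day and KO 3-week, so no difference below has a replicate check and no p-value is given.

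Making ribosomes is among the most costly tasks of a dividing cell. In the nucleolus RNA polymerase I transcribes a long precursor, small nucleolar ribonucleoproteins (snoRNPs) guide its chemical modification, and the small subunit processome and the large subunit assembly factors fold, cut and pack it with ribosomal proteins. T cells strongly raise this machinery when they are activated and enlarge before division, and the transcription factor Myc is a well-known activator of many of these genes.

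Values are FPKM, the read fragments of a gene scaled to transcript length and library depth. The depth inferred from the values was 20.7 and 22.6 M reads in WT and KO after 5 days, and 23.6 and 21.5 M reads in the longer culture. Where 4 values follow each other below, they keep this order. Men1, the gene of Menin, stood at 32.8 FPKM in WT and 10.3 in KO after 5 days, and at 25.4 and 5.88 in the longer culture, so its direction went with the genotype labels. Of the 5 helper T cell markers listed, 4 were found, and they summed to 831 FPKM in WT and 1003 in KO after 5 days, and to 878 and 1685 in the longer culture. Most of the higher 3-week sum in KO came from Cd3g (389 in WT and 1028 in KO). Cd28 (105, 76.3, 70.4 and 32.1 FPKM) was lower in KO at both times, and Cd4 at 5 days (164 in WT and 147 in KO). The 6 Th2 markers summed to 188, 158, 397 and 132 FPKM in that order. At 5 days 4 of the 6 (Il4, Il5, Il13 and Il1rl1) were higher in KO and the lower sum came mostly from Ccr4 (106 in WT and 71.2 in KO), while at 3 weeks all 6 were lower in KO. The 5 B cell markers summed to between 0.155 and 2.72 FPKM and the 4 NK cell markers to between 0.0174 and 2.1 FPKM, with Pax5 listed at 0 in every library. The 5 myeloid markers found summed to 4.75, 10.7, 3.45 and 18 FPKM and were higher in KO, most of it from Cd68. The 2 CD8 markers summed to between 2.04 and 5.7 FPKM, and the 3 erythroid markers to 12.1 FPKM in WT 5-day and between 0.952 and 3.6 FPKM elsewhere. The part of other cell types in the results below was not tested. In bulk RNA, fewer cells of a type and less RNA per cell cannot be told apart.

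All 35 ribosome biogenesis genes had a lower FPKM in KO than in WT after 5 days, and all 35 were further below WT in the longer culture. After 5 days a member stood at a median of 70.2% of its WT value, from 54% for Gar1 to 97.2% for Ddx52. In the longer culture the median was 29.8%, from 18% for Grwd1 to 90.3% for Ddx52. Summed over the 35 genes, FPKM was 1492 in WT and 1047 in KO after 5 days, and 1794 and 672 in the longer culture, which was 0.319%, 0.221%, 0.385% and 0.14% of all FPKM. Npm1 alone supplied much of this sum, and without it the sums were 994, 682, 1350 and 451 FPKM. In 32 of 35 genes the order of the libraries was the same, with WT 3-week highest, then WT 5-day, KO 5-day and KO 3-week. The exceptions were Npm1, Wdr12 and Ddx52, which were highest in WT 5-day, and KO 3-week was the lowest library in all 35. The share of all symbols with this order, or with KO 3-week lowest, was not counted. The order requires a rise in WT and a fall in KO with longer culture. That was found in 24.9% of symbols with a mean FPKM of at least 1.

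**Figure D1:**
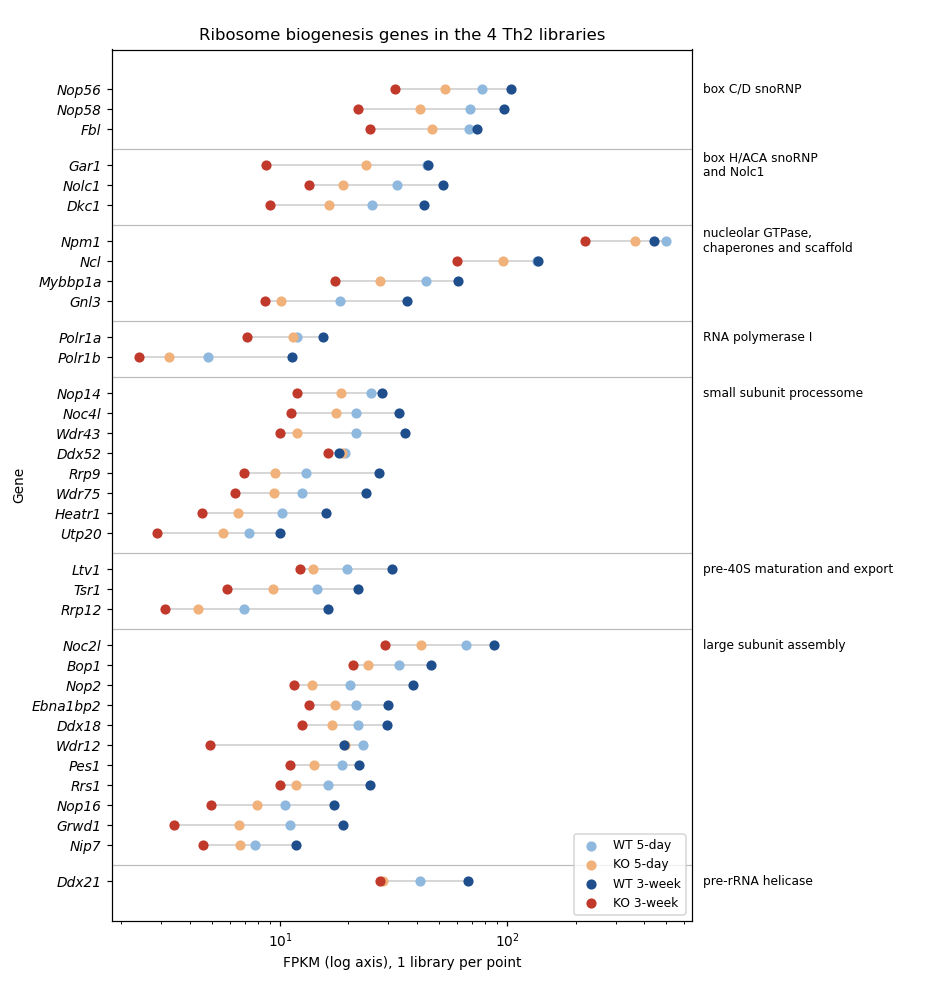
FPKM of the 35 ribosome biogenesis genes on a log axis, 1 point per library (no replicates), grouped by role and joined by a grey line per gene. WT 3-week lies rightmost in 32 genes and KO 3-week leftmost in all 35, and the points of Ddx52 lie close together.

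Differences were expressed as log2((KO + 1)/(WT + 1)) of FPKM, and at least 2-fold lower means a value of -1 or less. All 35 members passed the filter of a mean FPKM of at least 1, which left 10973 symbols to compare. At 5 days, 0 of 35 members were at least 2-fold lower, against 0.82% of all compared symbols, 0 were at least 2-fold higher, against 2.77%, and 10 of 35 were at least 1.5-fold lower, against 2.71%. All 35 lay below 0, against 53.6%, and their median was -0.48, where that of all compared symbols was -0.02. At 3 weeks, 32 of 35 were at least 2-fold lower, against 8.19% of all compared symbols, and 34 of 35 at least 1.5-fold lower, against 20.8%. At least 2-fold higher were 0 of 35, against 7.97%. All 35 lay below 0, against 55.8%, and their median was -1.60, where that of all compared symbols was -0.08. The 3 members that did not reach 2-fold by this measure were Npm1, which the added pseudocount of 1 kept just short although its FPKM was at 49.9% of WT, Pes1 with a log2 ratio of -0.94 and Ddx52 with -0.14. With a pseudocount of 0.1, 33 of 35 reached it. Counting intervals (exact Clopper-Pearson, 95%, on the reads that the FPKM imply) cover counting error only. They lay below 100% of WT for 32 of 35 genes at 5 days and for 35 of 35 at 3 weeks. The 5-day intervals that held 100% were those of Polr1a, Ddx52 and Nip7. Intervals were made for the members only, so the share of all compared symbols with such an interval is not known.

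**Figure D2:**
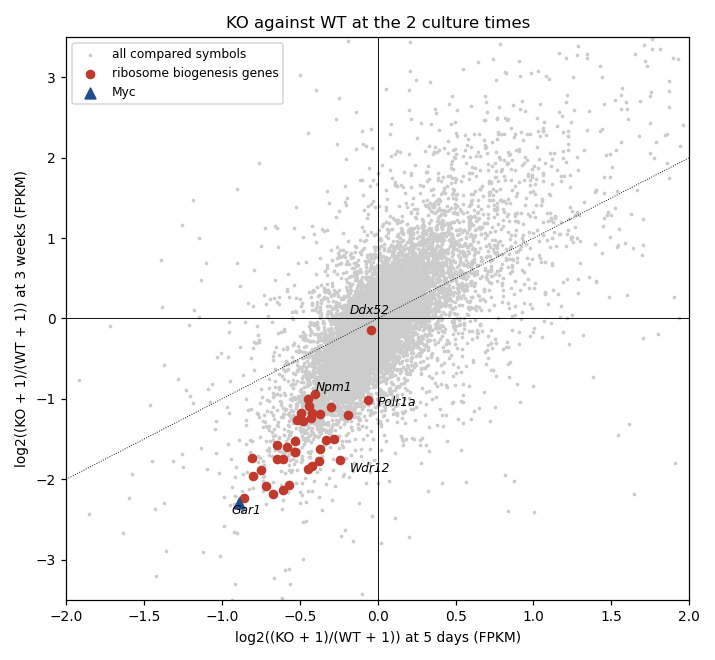
KO against WT at 5 days (x axis) and at 3 weeks (y axis) as log2((KO + 1)/(WT + 1)) of FPKM, with 1 point per gene, the 35 members in red, Myc as a triangle and all compared symbols in grey (174 lie outside the axes). All 35 members lie in the lower left quadrant and under the dotted line of equal difference.

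The difference between genotypes was itself further below at 3 weeks than at 5 days in 35 of 35 members, against 57.4% of all compared symbols. The 3-week minus the 5-day log2 ratio had a median of -1.10, against -0.08 for all compared symbols, and ranged from -1.52 for Dkc1 and Wdr12 to -0.10 for Ddx52. It was at least 2-fold lower in 20 of 35 members, against 4.7% of all compared symbols, and at least 4-fold lower in 0, against 0.784%. With a pseudocount of 5 in place of 1, the 2-fold count was 10 of 35. A value below 0 at 5 days that was further below at 3 weeks was found in 37% of all compared symbols. This difference was not tested.

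Since the members were lower in KO together, their promoters were searched for the E-box CACGTG, the preferred motif of Myc with its partner Max, which reads the same on both strands. RefSeq windows of GRCm38.p6, from 250 bases before to 50 after each annotated start, were at hand for 30 of the 35 members. Of these 30, 8 held CACGTG (26.7%), against 12.2% of 7774 compared symbols and 8.09% of all 27025 symbols with a window. In 7 of the 8 the motif lay within the 50 bases after the start, which was so in 157 of the 952 compared symbols with the motif (16.5%). This position was looked at after the matches were seen. The stretches of 30 bases that hold the motif are shown 5' to 3' on the strand of the gene, with the E-box in capitals, to let the flanks be compared.
Grwd1: aagggccggagtcgCACGTGtgaaaccgga
Mybbp1a: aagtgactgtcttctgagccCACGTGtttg
Tsr1: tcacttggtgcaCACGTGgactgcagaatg
Wdr43: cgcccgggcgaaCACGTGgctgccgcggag
Nop2: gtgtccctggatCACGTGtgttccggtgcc
Utp20: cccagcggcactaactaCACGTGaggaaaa
Ltv1: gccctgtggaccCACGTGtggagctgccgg
Pes1: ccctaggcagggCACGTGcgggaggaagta
They lie at chr7:45830740-45830769 (minus strand), chr11:72441347-72441376, chr11:74898092-74898121, chr17:71616220-71616249, chr6:125131811-125131840, chr10:88826765-88826794 (minus strand), chr10:13193092-13193121 (minus strand) and chr11:3963965-3963994. From the start to the motif there were 34 bases in Grwd1, 40 in Mybbp1a, 24 in Tsr1, 17 in Wdr43, 37 in Utp20, 28 in Ltv1 and 2 in Pes1, and in Nop2 the motif began 60 bases before the start. The 3-week genotype log2 ratio had a median of -1.70 in the 8 members with the motif (-2.18 to -0.94), -1.61 in the 22 without it (-2.24 to -0.14) and -1.24 in the 5 with no window. The ranges overlapped. That of the members without the motif was wider, but it spans 22 genes against 8, and its upper end is Ddx52 alone. CACGAG or its reverse complement CTCGTG was in 7 of 30 members (23.3%, against 10.3% of compared symbols), and CACGCG or CGCGTG in 7 of 30 (23.3%, against 20.6%). Any of these motifs was in 18 of 30 members (60%), against 36.9% of compared symbols.

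The 250 bases before the start are shown for 3 genes that differ in the data: Nop2, the member with CACGTG on this side (capitals), Gar1, with the lowest 3-week log2 ratio, and Ddx52, with the highest.
Nop2: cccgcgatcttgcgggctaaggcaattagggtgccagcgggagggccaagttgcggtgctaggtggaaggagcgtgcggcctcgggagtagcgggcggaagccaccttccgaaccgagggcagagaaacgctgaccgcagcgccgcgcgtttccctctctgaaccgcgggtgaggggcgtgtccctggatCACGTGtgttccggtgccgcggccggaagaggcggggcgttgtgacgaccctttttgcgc
Gar1: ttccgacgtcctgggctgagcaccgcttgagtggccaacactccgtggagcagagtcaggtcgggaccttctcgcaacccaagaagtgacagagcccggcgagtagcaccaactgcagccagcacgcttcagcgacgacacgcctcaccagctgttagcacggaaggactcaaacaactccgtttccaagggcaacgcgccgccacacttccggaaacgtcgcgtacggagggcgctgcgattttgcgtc
Ddx52: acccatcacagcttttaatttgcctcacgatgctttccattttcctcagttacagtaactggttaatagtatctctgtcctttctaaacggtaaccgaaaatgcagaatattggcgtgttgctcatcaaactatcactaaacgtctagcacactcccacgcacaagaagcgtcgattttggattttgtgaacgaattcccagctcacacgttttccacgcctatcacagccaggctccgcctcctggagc
These are chr6:125131633-125131882 for Nop2, chr3:129831397-129831646 on the minus strand for Gar1 and chr11:83941840-83942089 for Ddx52. Their share of G and C bases was 67.6%, 61.6% and 45.6%. The windows of Gar1 and Ddx52 held none of the motifs searched, which says only that these letters are not in these windows.

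RNA polymerase I, which transcribes the ribosomal RNA precursor, was represented by its largest subunits, Polr1a and Polr1b. Polr1a (chromosome 6, 71909053 to 71984935) stood at 11.9 FPKM in WT and 11.4 in KO after 5 days, and at 15.5 and 7.15 in the longer culture. Its 5-day libraries were nearly level, at 95.8% of WT (counting interval 90.3% to 102%), and KO 3-week was at 46.3% (43.4% to 49.3%). Its exons overlap a gene on the other strand, as do those of Bop1, Dkc1, Gnl3, Grwd1, Heatr1, Mybbp1a, Noc2l, Nop14, Nop56, Pes1, Rrp9, Tsr1, Wdr12 and Wdr43, and reads of such pairs may be mixed. Polr1b (chromosome 2, 129100995 to 129126594) stood at 4.79, 3.24, 11.3 and 2.38 FPKM in that order. It was 67.6% of WT at 5 days (55.6% to 81.8%) and 21% at 3 weeks (17.3% to 25.4%), with WT 3-week far above the other libraries. The log2 ratios at 3 weeks were -1.01 and -1.87.

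Box C/D snoRNPs carry the methyltransferase fibrillarin (Fbl) with the core proteins Nop56 and Nop58, and add methyl groups to ribosomal RNA. Nop56 (chromosome 2, 130274430 to 130279313) stood at 77.3 FPKM in WT and 53.2 in KO after 5 days, and at 104 and 32.1 in the longer culture. Nop58 stood at 68.3, 41.2, 96.7 and 22.1 FPKM, and Fbl at 68.1, 46.7, 73.6 and 25 FPKM. In each of the 3 genes both KO libraries lay below both WT libraries. At 3 weeks KO was at 30.9% of WT for Nop56 (27.8% to 34.3%), 22.9% for Nop58 (21.1% to 24.8%) and 33.9% for Fbl (30.7% to 37.4%). Pseudogene or other transcripts nearly identical to Nop56 and Fbl are annotated, so their reads may be split between copies.

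Box H/ACA snoRNPs turn uridines of ribosomal RNA into pseudouridine, with Dkc1 as the catalytic subunit and Gar1 as a core protein, and the phosphoprotein Nolc1 is associated with snoRNPs in the nucleolus. Of the 8 role groups, this one had the lowest median log2 ratio at 3 weeks, -2.13. Gar1 (chromosome 3, 129824912 to 129831396) stood at 44.5 FPKM in WT and 24 in KO after 5 days, and at 44.9 and 8.69 in the longer culture. The WT libraries were level and KO was at 54% of WT at 5 days (48.7% to 59.9%) and 19.4% at 3 weeks (16.6% to 22.5%), a log2 ratio of -2.24. Dkc1 (chromosome X, 75095854 to 75109777) stood at 25.5, 16.4, 43 and 9.05 FPKM, and Nolc1 at 32.6, 19, 52 and 13.4 FPKM. Unlike Gar1, both stood higher in WT 3-week than in WT 5-day. KO 3-week was at 21% of WT for Dkc1 (19.1% to 23.1%) and 25.7% for Nolc1 (23.5% to 28%).

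Among abundant nucleolar proteins, nucleophosmin (Npm1) and nucleolin (Ncl) act as chaperones of ribosome assembly, nucleostemin (Gnl3) is a GTPase, and Mybbp1a is a nucleolar protein first known as a Myb partner. Npm1 (chromosome 11, 33152287 to 33163206), the most abundant member per transcript length, stood at 498 FPKM in WT and 365 in KO after 5 days, and at 444 and 221 in the longer culture. Its KO libraries were at 73.3% (70.9% to 75.7%) and 49.9% (48% to 51.9%) of WT, and several nearly identical copies are annotated, so its level is uncertain. Ncl stood at 135, 95.5, 137 and 60.2 FPKM, level between the WT libraries. Gnl3 stood at 18.4, 10.1, 36.3 and 8.57 FPKM and Mybbp1a at 43.7, 27.6, 60.8 and 17.4 FPKM, both highest in WT 3-week. At 3 weeks the log2 ratios were -1.18 for Ncl, -1.75 for Mybbp1a and -1.96 for Gnl3.

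The small subunit processome is the particle that forms on the precursor and releases the 18S ribosomal RNA. Of its 8 members here, 7 were at least 2-fold lower in KO at 3 weeks, against 8.19% of all compared symbols. The median over the 8 was -1.56 (median at 5 days -0.40). Nop14 stood at 25.1 FPKM in WT and 18.5 in KO after 5 days, and at 28.2 and 11.9 in the longer culture, and Noc4l, its assembly partner, at 21.5, 17.6, 33.4 and 11.2 FPKM. Wdr43 and Wdr75, WD-repeat proteins of the particle, stood at 21.6, 11.9, 35.6 and 9.98 FPKM and at 12.5, 9.38, 23.9 and 6.3 FPKM. Rrp9, a protein of the U3 snoRNP, stood at 13, 9.48, 27.3 and 6.92 FPKM. The large scaffold proteins Heatr1 and Utp20 stood at 10.2, 6.52, 15.9 and 4.54 FPKM and at 7.27, 5.6, 10 and 2.87 FPKM. In these 7 genes WT 3-week was the highest and KO 3-week the lowest library.

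Ddx52 (chromosome 11, 83942062 to 83963088), the counterpart of a yeast RNA helicase needed for 18S ribosomal RNA, stood apart from the other processome members. It stood at 19.3 FPKM in WT and 18.7 in KO after 5 days, and at 18.1 and 16.3 in the longer culture, so the 4 libraries lay close together. KO was at 97.2% of WT at 5 days (89.8% to 105%) and at 90.3% at 3 weeks (83.2% to 98.2%). Without it, the median of the other 34 members at 3 weeks was -1.61.

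Rrp12, Tsr1 and Ltv1 act later, in the maturation and export of the small subunit precursor. Rrp12 (chromosome 19, 41862851 to 41896173) stood at 6.94 FPKM in WT and 4.33 in KO after 5 days, and at 16.2 and 3.12 in the longer culture. Its WT 3-week value was above WT 5-day by a log2 ratio of 1.12, and KO 3-week was at 19.2% of WT (16.8% to 21.8%). Tsr1 stood at 14.6, 9.26, 22.1 and 5.83 FPKM and Ltv1 at 19.8, 13.9, 31 and 12.2 FPKM. All 3 were at least 2-fold lower at 3 weeks, against 8.19% of all compared symbols, and their median was -1.75.

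Of 11 large subunit assembly genes, 10 were at least 2-fold lower in KO at 3 weeks, against 8.19% of all compared symbols. The median over the 11 was -1.24 (median at 5 days -0.40). Grwd1 (chromosome 7, 45825223 to 45830944), a chaperone of a large subunit protein, stood at 11.1 FPKM in WT and 6.56 in KO after 5 days, and at 19 and 3.42 in the longer culture, 18% of WT at 3 weeks (14.8% to 21.8%). Pes1, Bop1 and Wdr12 form the PeBoW complex, which is needed to process the large subunit's RNA, and they did not move in parallel. Pes1 stood at 18.8, 14.1, 22.2 and 11.1 FPKM and Bop1 at 33.5, 24.4, 46 and 21 FPKM. Wdr12 (chromosome 1, 60069785 to 60098645) stood at 23.1, 19.4, 19.1 and 4.93 FPKM, so that only KO 3-week stood apart. KO was at 50.1% of WT at 3 weeks for Pes1 (45.6% to 55.1%), 45.7% for Bop1 (42.5% to 49.2%) and 25.8% for Wdr12 (22.6% to 29.4%), intervals of counting error among which that of Wdr12 did not overlap the others. Transcripts nearly identical to Pes1 and Wdr12 are annotated, as they are for Ddx18 and Ddx21.

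Noc2l, whose yeast counterpart travels with large subunit precursors, stood at 66 FPKM in WT and 41.6 in KO after 5 days, and at 87.6 and 28.9 in the longer culture. Nop2, a ribosomal RNA methyltransferase, stood at 20.4, 13.8, 38.6 and 11.5 FPKM. The helicase gene Ddx18 stood at 22.1, 16.9, 29.7 and 12.5 FPKM and Ebna1bp2 at 21.6, 17.4, 29.9 and 13.4 FPKM. In all 4 genes both KO libraries lay below both WT libraries. Rrs1, a further large subunit factor gene, stood at 16.2, 11.8, 25 and 10 FPKM, Nop16 at 10.5, 7.92, 17.3 and 4.95 FPKM, and Nip7 at 7.77, 6.69, 11.8 and 4.57 FPKM. Nip7 had the fewest inferred reads of any member, 40 in a library, and its 5-day interval was 59.6% to 124% of WT. Both rest on its shortest annotated coding transcript, of 606 bases, while its longest has 3036 bases. Ddx21, a helicase that links RNA polymerase I to precursor processing, stood at 41.1, 28.3, 66.9 and 27.4 FPKM, with both KO libraries level and far below WT 3-week.

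**Figure D3:**
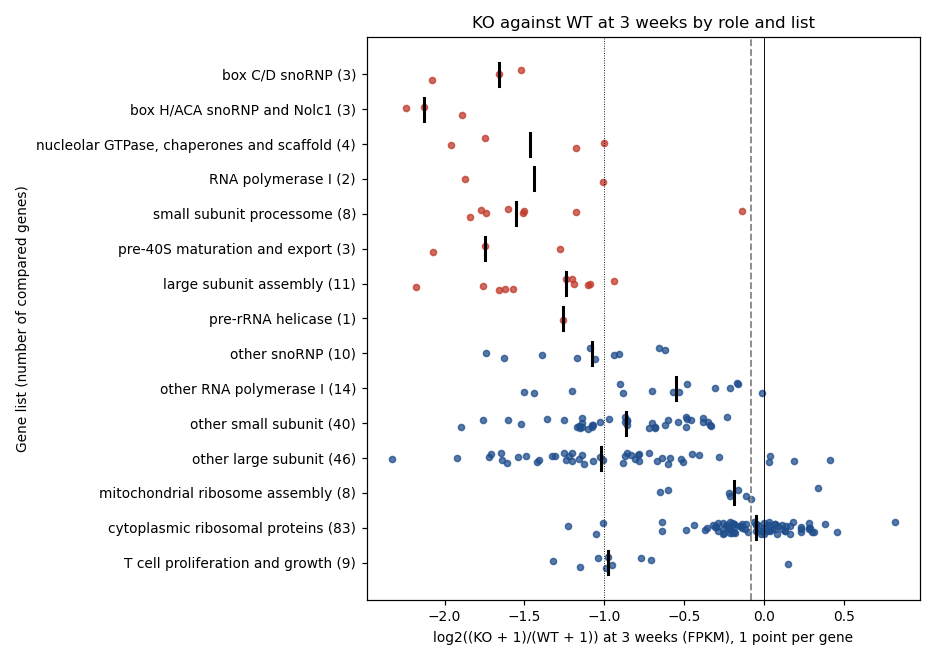
KO against WT at 3 weeks as log2((KO + 1)/(WT + 1)) of FPKM, 1 point per gene, for the 35 members by role (red) and for other lists (blue), with list medians as black bars, the median of all compared symbols dashed and -1 dotted. The medians of the member roles run from -2.13 to -1.24, and that of the cytoplasmic ribosomal proteins is -0.05.

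The comparison of the longer with the 5-day culture went opposite ways in the genotypes. These contrasts share libraries with the genotype contrasts, and the cultures also differed in restimulation, cytokines and antibody. In WT cells 32 of 35 members were higher in the longer culture, against 51.9% of all compared symbols, with a median log2 ratio of 0.55 (all compared symbols 0.01). At least 2-fold higher were 3 of 35, against 3.03%: Rrp12 at 1.12, Polr1b at 1.09 and Rrp9 at 1.01. With a pseudocount of 5 this count was 0 of 35, and with upper-quartile scaling it was 2. In KO cells 35 of 35 members were lower in the longer culture, against 56.8% of all compared symbols, with a median of -0.51 (all compared symbols -0.06). At least 2-fold lower were 2 of 35, Wdr12 at -1.78 and Gar1 at -1.37, against 4.39%. Higher in WT and lower in KO were 32 of 35 members, against 24.9% of all compared symbols.

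**Figure D4:**
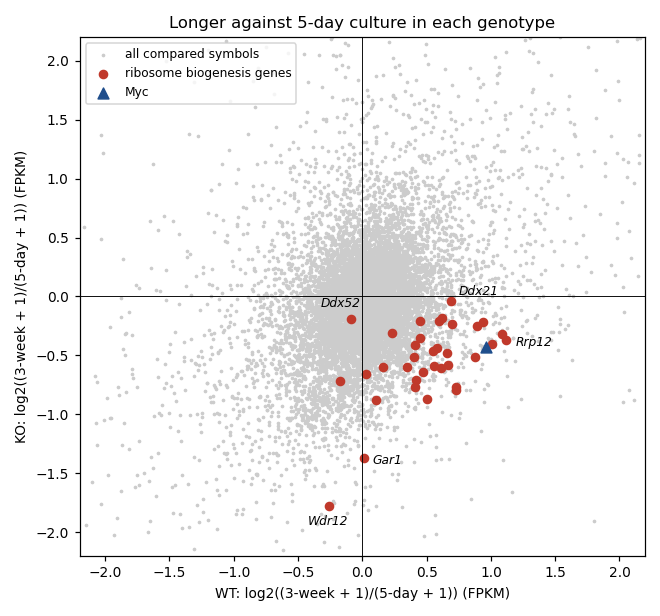
The longer against the 5-day culture in WT (x axis) and KO (y axis) as log2((3-week + 1)/(5-day + 1)) of FPKM, with the 35 members in red, Myc as a triangle and all compared symbols in grey (238 lie outside the axes). Of the members, 32 lie in the lower right quadrant, higher in WT and lower in KO.

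Other genes of the pathway stood lower as well, though their medians lay nearer to 0. The members and these lists were chosen with earlier results known, so this difference in medians cannot be told apart from that choice. Of the 110 other ribosome biogenesis genes listed and compared, 50 reached 2-fold lower in KO at 3 weeks and 0 reached 2-fold higher, 106 lay below 0, and the median was -0.88. Of all compared symbols, 8.19% were at least 2-fold lower, 7.97% at least 2-fold higher and 55.8% below 0. At 5 days 0 of 110 were at least 2-fold lower, against 0.82% of all compared symbols, and 0 at least 2-fold higher, against 2.77%. At that time 102 lay below 0, against 53.6%, and the median was -0.29. Of 46 other large subunit genes 24 were at least 2-fold lower at 3 weeks (median -1.02), led by Rrp15 (19.6, 10.2, 30.6 and 5.26 FPKM) and Ppan (23.4, 15.1, 42.8 and 10.6 FPKM). Of 40 other small subunit genes 17 were (median -0.86), led by Rcl1 at -1.90 and Utp18 at -1.76. Of 10 other snoRNP genes 6 were (median -1.08), led by the assembly factors Naf1 at -1.74 and Ruvbl1 at -1.63. Of 14 other RNA polymerase I genes 3 were (median -0.55), led by Cd3eap, a polymerase subunit gene, at -1.50 and Tcof1, a nucleolar factor gene, at -1.44.

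The structural proteins of the ribosome did not stand lower in the same way. The list was taken by symbol pattern and may hold genes that do not encode a structural protein, such as Rpl7l1. It had 83 compared cytoplasmic ribosomal protein genes. In KO at 3 weeks 3 of them (Rpl7l1, Rpl30 and Rps27l) reached 2-fold lower, against 8.19% of all compared symbols. None reached 2-fold higher, against 7.97%, 50 of 83 lay below 0, against 55.8%, and the median was -0.05. At 5 days none reached 2-fold lower, against 0.82%, and 1 (Rps4y2) reached 2-fold higher, against 2.77%. Below 0 at 5 days were 60 of 83, against 53.6%, and the median was -0.07. Their sum was 63257 FPKM in WT and 60582 in KO after 5 days, and 55321 and 52738 in the longer culture, so the libraries lay near each other. Near-identical copies were searched for the members only, so their part in this list is not known. Levels within it were uneven, with Rpl21 at 3, Rps27 at 12.5 and Rpl4 at 1427 FPKM in WT 5-day. Of 8 genes of mitochondrial ribosome assembly, 0 reached 2-fold lower or higher at 3 weeks, but 7 lay below 0, against 55.8%. Their median was -0.18, with Eral1 at -0.65 and Rbfa at -0.60 farthest from 0. Whether the members differ from these lists was not tested, since each group held 1 library.

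Myc itself stood at 38.4 FPKM in WT and 20.3 in KO after 5 days, and at 75.8 and 14.7 in the longer culture. It had the order of libraries that 32 of the 35 members had, and its log2 ratios were -0.89 at 5 days and -2.29 at 3 weeks. Mxd1 and Mxd4, genes of Max partners that repress Myc targets, ran the other way. Mxd1 stood at 5.88, 8.79, 4.53 and 32.5 FPKM in that order, and Mxd4 at 33.8, 44.5, 28.6 and 96.8 FPKM. Of the other Myc network genes listed, Mxd3 (52.1, 54, 40.1 and 34.8 FPKM) was slightly lower in KO at 3 weeks. Mxi1 and Mnt had smaller 3-week log2 ratios, 0.70 and 0.40. Mycn stood at 0.58, 1.16, 0.0705 and 3.47 FPKM, and the common partner gene Max was nearly level, at 33.9, 29.4, 32.1 and 29.5 FPKM. Over the 8 genes of this network 1 was at least 2-fold lower and 3 were higher in KO at 3 weeks. Of all compared symbols, 8.19% were at least 2-fold lower and 7.97% higher. What part Myc or its partners had in the members' values was not tested.

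Of 9 proliferation genes, 8 lay below WT in KO in both cultures. Of all compared symbols, 53.6% lay below WT at 5 days and 55.8% at 3 weeks. The same 8 genes were lower in the longer WT culture, as were 5249 of 10973 compared symbols. The exception was Ccnd2, the cyclin D2 gene, at 43.8, 44.7, 105 and 116 FPKM, which was slightly above WT in KO at both times and over 2-fold higher in the longer WT culture. Of the 9 genes 3 were at least 2-fold lower in KO at 3 weeks, against 8.19% of all compared symbols. None was at least 2-fold higher, against 7.97%. The median was -0.98, and -0.26 at 5 days. Among the 3 were Ccnb1 (58.6, 48.7, 53.4 and 20.8 FPKM) and Top2a (242, 201, 172 and 76.9 FPKM). Mki67, a marker of cycling cells, stood at 194, 175, 152 and 78.4 FPKM. The median of the 9 in the longer against the 5-day culture was -0.31 in WT, where 32 of 35 members were higher, and -1.03 in KO. Their part in the members' values was not tested.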

How the data were processed

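RNA of 4 Th2 libraries, 1 per group, was analysed. The deposited values are FPKM, which the authors made with Bowtie 0.12.8, TopHat 1.3.2 and Cufflinks 2.0.2 on mm10, per the submitters' processing notes. Per the labels' protocols, the kit was TruSeq Stranded mRNA. The sources used here do not give the annotation, the strand setting or any filter. Without strand, reads of overlapping genes cannot be told apart, and exons of 15 of 35 members overlap a gene on the other strand in GENCODE M21 (GRCm38). Transcripts of another gene match 7 members at 95% identity or more over at least 300 bases (BLAST 2.17.0).

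Each file held 23746 lines, and lines of 1 symbol were summed (240 symbols, no member). One symbol with a spreadsheet error mark was left out. Ratios were log2((a + 1)/(b + 1)) for symbols with a mean FPKM of at least 1. The pseudocount understates differences of low genes. Groups followed the sample titles. Each comparison was described by counts and medians, with no test.

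Depth was inferred from low FPKM of genes with 1 transcript, whose length was reduced by 200 bases. Between 59.6% and 62.3% of values under 5.5 reads lay within 0.05 of a whole number, against 10% for an even spread. Intervals used each member's shortest coding transcript. On simulated counts for KO against WT at 3 weeks (10973 genes), the 2-fold rule counted 92% of 50 genes simulated with a 3-fold change, 24% of 50 with a 2-fold change, 0% of 50 with a 1.5-fold change and 1 of 10773 without a change. At 5 days the values were 90%, 14%, 0% and 2 of 10773. The simulated counts varied by counting error only. They cannot show how often the rule counts genes that differ between cultures or mice of the same group.

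The members and lists were chosen with earlier results of these data known. Named genes were the members, Men1, Myc and, per other pathway list, the 2 with the largest 3-week ratio, and further genes named were chosen after their values were seen. Pseudocounts of 0.1 and 5, no filter or a mean of 5 FPKM, 3 scalings and the largest line of a symbol were tried. Python 3.11.15, pandas 2.3.3 and scipy 1.17.1 were used.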

Additional observations from a re-analysis of the deposited data

Results flagged for a closer look

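The longer against the 5-day culture gave opposite directions in the 2 genotypes, with 1 library per group, and this difference was not tested. The 35 members had a median log2 ratio of 0.55 in WT and -0.51 in KO, and Myc had 0.96 in WT and -0.43 in KO. The lists of other pathway genes showed the same directions. The medians were 0.28 in WT and -0.40 in KO for other snoRNP genes, 0.33 and -0.23 for other small subunit genes, 0.32 and -0.33 for other large subunit genes, and 0.11 and -0.26 for other RNA polymerase I genes.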

How the results depend on the processing

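The 8 alternatives kept the direction of every member median. At 3 weeks the median ranged from -1.74 (pseudocount 0.1) to -1.25 (pseudocount 5), with 25 to 33 of 35 members at least 2-fold lower, and at 5 days from -0.51 to -0.39, with 0 of 35. All 35 stayed below 0 in both genotype contrasts under each alternative. With a pseudocount of 5, 0 members were at least 2-fold higher in the longer WT culture, against 3, and the 3-week minus 5-day genotype ratio was at least 2-fold lower in 10 members, against 20, since that pseudocount shrinks ratios of genes at such levels. In the longer KO culture 34 rather than 35 members lay below 0 with median-of-ratios or upper-quartile scaling. Upper-quartile scaling moved the 3-week median of all compared symbols from -0.08 to 0.03. No replicate could be left out, and no paired analysis was possible because each group held 1 library. By the inferred reads, counting error was smallest for Ncl and largest for Nip7. This ranking depends on the transcript length used, 8202 bases for Ncl and 606 for Nip7.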

Other observations

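Several members carry genes of small nucleolar RNAs, the guides of the snoRNPs, inside their own introns or exons. In GENCODE M21, 7 of 35 members (20%) held 21 such genes on their own strand, against 1.75% of 9487 compared protein-coding genes. These were Nop56 with 5, Nop58 with 4, Ncl, Gnl3 and Wdr43 with 3 each, Tsr1 with 2 and Dkc1 with 1. Values of such short RNAs were not used here.

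Among 110 other pathway genes, 4 had a higher FPKM in KO than in WT at 3 weeks, and all 4 belong to the large subunit list. Gltscr2 stood at 104 FPKM in WT 3-week and 139 in KO 3-week, Eftud1 at 7.84 and 9.09, Sbds at 41.2 and 42.2, and Nsa2 at 32.5 and 33.4. Sbds and Nsa2 were nearly level, with log2 ratios of 0.03 and 0.04. Sbds and Eftud1 act together in the cytoplasm, in the last step that readies the large subunit. Of the 46 genes of that list 42 lay below 0 at 3 weeks, against 55.8% of all compared symbols. Among the 42 were Eif6 at -0.67, Nmd3 at -0.81 and Lsg1 at -0.60. All genes named here were singled out after their values were seen.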
